A study of Mus musculus with 8 samples.

Results

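Ketone body genes were followed in the outer renal cortex of mice as a group of 5: Bdh1, Bdh2, Oxct1, Acat1 and Slc16a1. They were chosen by gene symbol, and all 5 were found among the 23504 gene symbols of the deposited count table. RNA was sequenced from wild type C57Bl6/J mice fed a high fat diet (libraries A, B, F and G) or a control diet (libraries I, J, L and M), 4 libraries per diet. The diets began at 6 weeks of age and lasted 9 weeks, so the mice were 15 weeks old. Apart from the diet, all libraries shared strain, genotype, tissue and age. The sources used here do not give the composition of the diets. Whether the libraries stem from separate mice is not stated either, so p-values cover the spread among these libraries and no more. The series set out to find genes whose expression differs between the diets.

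Ketone bodies are small, water-soluble fuels made from acetyl-CoA, mainly in liver mitochondria, when fatty acids are burned faster than the citric acid cycle takes up their product. Acetoacetate is formed first, and the enzyme of Bdh1 interconverts it with beta-hydroxybutyrate. Tissues that burn ketone bodies, the kidney cortex among them, activate acetoacetate with succinyl-CoA through the enzyme of Oxct1 (SCOT) and split the product with the thiolase of Acat1, while monocarboxylate transporters such as that of Slc16a1 (MCT1) carry ketone bodies and lactate across membranes.

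The high fat libraries held 23503593 to 26291029 expected counts each and the control libraries 26572175 to 30781585. Rn45s, the ribosomal RNA precursor, took 4.82% to 13.3% of counts in the high fat libraries and 1.23% to 50.3% in the control libraries, with the highest share in control J. Rn45s was therefore removed before scaling, which left 13993652 counts in control J and at least 21793784 in each of the other 7 libraries. Levels are given as CPM, counts per 1000000 counts after trimmed-mean (TMM) scaling. A gene is called changed when its Benjamini-Hochberg adjusted p in the edgeR quasi-likelihood test is below 0.05, which held for 1469 of 14711 tested genes. Summed markers of the first proximal tubule segments, the main cells of the cortex, reached 24300 to 25700 CPM on the high fat diet and 23700 to 25200 CPM on the control diet. Of these 10 markers, 3 were called higher on the high fat diet and 1 lower, beside 4.86% and 5.13% of all tested genes. The similar sums therefore do not show that the single markers were unchanged. All 6 podocyte markers, which mark the glomeruli of the cortex, passed the filter on low counts. Fewer cells of a type and less RNA per cell cannot be told apart in such bulk tissue.

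None of the 5 ketone body genes was called between the diets in edgeR, in a comparison that called 9.99% of all tested genes (4.86% higher and 5.13% lower). DESeq2 and limma-voom called 0 of the 5 as well, beside 1842 and 1452 of the 14711 tested genes. At an unadjusted p under 0.05, 2 of the 5 were higher on the high fat diet (Acat1 and Slc16a1) and 0 lower. Of all 14711 tested genes 27.4% met this in either direction, 1952 higher and 2074 lower. The values of the diets overlapped for every member. Of all tested genes 17.5% showed no overlap (8.31% higher and 9.2% lower), and with only 5 members this does not set them apart. The median log2 fold change was 0.15 over the 5 genes and -0.0023 over all tested genes.

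**Figure D1:**
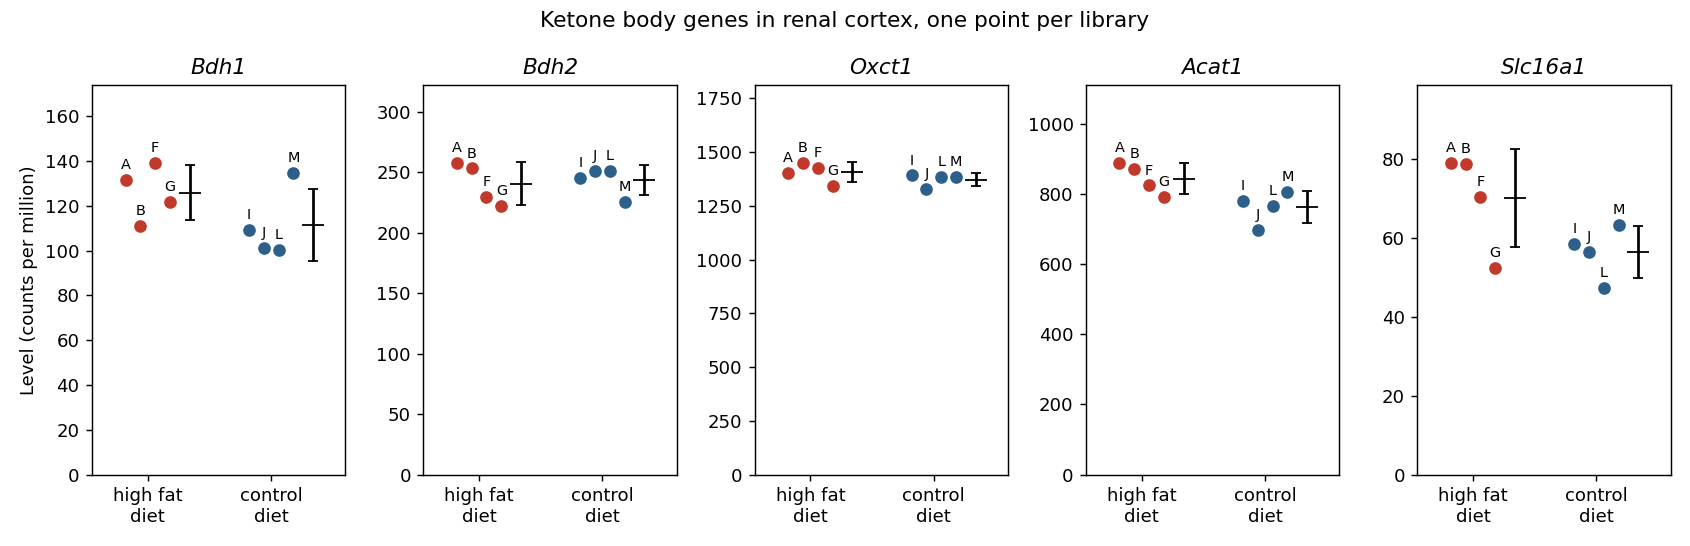
Level of the 5 ketone body genes in each library, in CPM with the axis from 0; letters name the libraries, and the bars give mean and SD of 4 libraries. The high fat and control points overlap in every panel, most tightly for Oxct1, which lies between 1328 and 1450 CPM throughout.

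Per transcript length, the 5 genes lay on very different levels. For this comparison the deposited FPKM values were rescaled to the same library scaling as the CPM. Oxct1, the enzyme that commits acetoacetate to oxidation, stood highest at 409 ± 13.3 rescaled FPKM on the high fat diet and 399 ± 9.04 on the control diet (SD, n = 4 each). Its mean over the 8 libraries ranked 154 among 14701 genes. Acat1, the mitochondrial thiolase, followed at 254 ± 13.2 on the high fat diet and 229 ± 14.0 on the control diet (rescaled FPKM, SD, n = 4 each). Bdh2, a cytosolic dehydrogenase, stood at 219 ± 16.1 rescaled FPKM on the high fat diet and 222 ± 11.6 on the control diet (SD, n = 4 each). On the high fat diet the ranges of these neighbours did not overlap, at 238 to 267 rescaled FPKM for Acat1 and 202 to 235 for Bdh2. On the control diet they did, at 209 to 242 rescaled FPKM for Acat1 and 205 to 230 for Bdh2. Bdh1, the mitochondrial dehydrogenase, was far lower, at 41.1 ± 3.95 rescaled FPKM on the high fat diet and 36.4 ± 5.26 on the control diet (SD, n = 4 each). Slc16a1 was the lowest, at 16.02 ± 2.86 rescaled FPKM on the high fat diet and 12.9 ± 1.52 on the control diet (SD, n = 4 each). Apart from Acat1 and Bdh2, no neighbours in this order overlapped in any library.

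**Figure D2:**
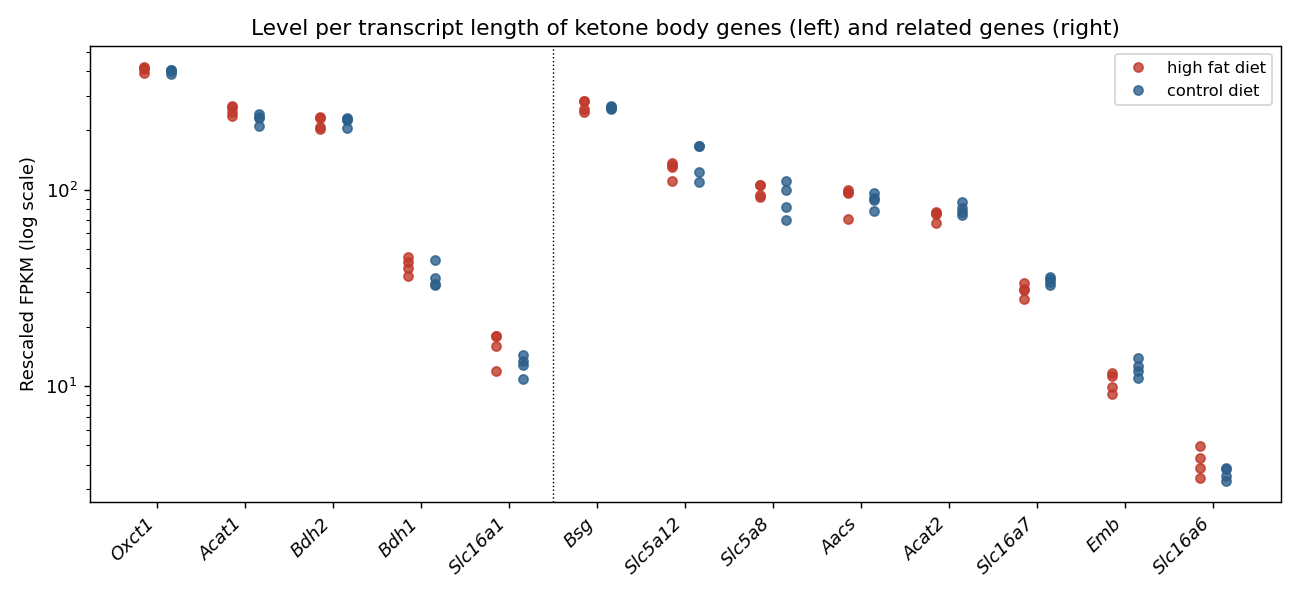
Rescaled FPKM of the 5 ketone body genes (left of the dotted line) and of related genes (right), on a log axis, with 1 point per library and high fat left of control. Oxct1 is the highest of those drawn in every library, and Slc16a1 is the lowest of the 5 members.

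The promoter windows of the steadiest and the most variable member are shown, because these genes mark the ends of the group in spread between libraries. Each runs from 250 bases before to 50 bases after the RefSeq transcript start on the plus strand of GRCm38.p6; the Oxct1 window is chr15:4026178-4026477 and the Slc16a1 window chr3:104638414-104638713. Capitals mark CACGTG, the E-box.
Oxct1: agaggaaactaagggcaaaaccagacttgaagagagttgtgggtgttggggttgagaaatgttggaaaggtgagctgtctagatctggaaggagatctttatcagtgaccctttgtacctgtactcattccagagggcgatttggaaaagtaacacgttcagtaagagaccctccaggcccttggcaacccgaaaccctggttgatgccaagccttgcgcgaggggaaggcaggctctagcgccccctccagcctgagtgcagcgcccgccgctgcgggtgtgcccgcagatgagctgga
Slc16a1: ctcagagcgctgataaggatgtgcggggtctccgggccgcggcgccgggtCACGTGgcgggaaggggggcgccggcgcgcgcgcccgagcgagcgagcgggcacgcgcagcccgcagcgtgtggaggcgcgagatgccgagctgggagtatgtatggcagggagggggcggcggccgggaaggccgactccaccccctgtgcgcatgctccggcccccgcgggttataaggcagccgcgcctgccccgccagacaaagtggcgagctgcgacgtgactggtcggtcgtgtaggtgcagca
The Slc16a1 window was 73.7% G and C, above 94.9% of 32851 windows, and held 42 CG pairs, against a median of 7. The Oxct1 window was 55.3% G and C with 11 CG pairs. The letters CACGTG, which read the same on both strands, began 200 bases before the Slc16a1 start and occur in 7.15% of all windows; they were absent from the Oxct1 window, the Bdh2 window and both Bdh1 windows. The recognition element of nuclear receptors such as PPARalpha, AGGTCA on either strand, was in none of these 5 windows and in 16.3% of all windows. The DR1 motif, a direct repeat of that element spaced by 1 base, was searched in exact form on both strands and was in 0.0396% of all windows. It contains AGGTCA, so its absence from the 5 windows follows from that of AGGTCA and is no separate result. RefSeq windows were matched for 4 of the 5 members, all but Acat1.

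Bdh1 encodes the beta-hydroxybutyrate dehydrogenase of mitochondria (chromosome 16, 31422280 to 31458901, plus strand, GRCm38). It had 132, 111, 139 and 122 CPM in high fat A, B, F and G, against 109, 101, 101 and 135 CPM in control I, J, L and M. Control M lay above 3 of the 4 high fat libraries, while the other 3 control libraries lay below all of them. The log2 fold change was 0.17 ± 0.10 (SE), with a 95% interval of -0.04 to 0.39 and adjusted p = 0.29 in edgeR. Without control M it was 0.28, with adjusted p = 0.0501 in edgeR, which is not a call. The antisense gene Gm15743 overlaps Bdh1 and shares 240 bases with its longest transcript, and the labels do not say whether strand was used in counting.

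Bdh2, whose cytosolic product is also linked to iron handling through siderophore synthesis (chromosome 3, 135281221 to 135304426, plus strand), had 258, 253, 230 and 222 CPM in high fat A, B, F and G, against 246, 251, 251 and 225 CPM in control I, J, L and M. The control values all lay inside the range of the high fat values. The log2 fold change was -0.02 ± 0.06 (SE), with a 95% interval of -0.16 to 0.13 and adjusted p = 0.91 in edgeR; on the linear scale the interval ran from 0.897-fold to 1.09-fold. Its sign turned with the scaling, to 0.0015 with upper-quartile factors and to 0.04 after removal of the length trend, and it was 0.02 without high fat G. No transcript of another gene matched it closely.

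Oxct1, the succinyl-CoA transferase (chromosome 15, 4026383 to 4155344, plus strand), had 1404, 1450, 1428 and 1343 CPM in high fat A, B, F and G, against 1392, 1328, 1385 and 1384 CPM in control I, J, L and M. The 8 libraries differed by at most 1.09-fold. The log2 fold change was 0.04 ± 0.05 (SE), with a 95% interval of -0.08 to 0.15 and adjusted p = 0.72 in edgeR, or 0.945-fold to 1.11-fold on the linear scale. The SD of log2 CPM within a diet was 0.040, and only 2.89% of the 9300 genes averaging 10 CPM or more had a smaller one. The median gene had 0.10. This ranking took no account of level, and most of these genes had lower levels than Oxct1. Its testis-expressed relatives Oxct2a and Oxct2b, alike to it at 69.4% and 69.5% over 1391 bases, were not tested: Oxct2a had at most 12 expected counts in any library and Oxct2b at most 2.34. Oxct1 also shares 468 bases with the opposite-strand gene BC037032.

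Acat1, the acetoacetyl-CoA thiolase, which also acts in the last step of isoleucine breakdown (chromosome 9, 53580522 to 53610382, minus strand), had 889, 871, 825 and 792 CPM in high fat A, B, F and G, against 781, 697, 766 and 805 CPM in control I, J, L and M. Only control M reached into the range of the high fat libraries, above high fat G. The log2 fold change was 0.15 ± 0.06 (SE), with an interval of 0.01 to 0.29 that is not adjusted for the number of genes and an adjusted p = 0.16 in edgeR. The value was 0.11 without control J, the library rich in Rn45s and lowest for Acat1. Within each library, where scaling between libraries plays no part, Oxct1 had 1.53, 1.61, 1.68 and 1.64 times the FPKM of Acat1 in high fat A, B, F and G, against 1.73, 1.84, 1.75 and 1.66 times in control I, J, L and M. The ratio overlapped between the diets only through control M and high fat F; it was chosen after the values were seen and was not tested.

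Slc16a1, the proton-coupled transporter of lactate, pyruvate and ketone bodies (chromosome 3, 104638668 to 104658462, plus strand), had 79.1, 78.9, 70.6 and 52.4 CPM in high fat A, B, F and G, against 58.6, 56.5, 47.5 and 63.5 CPM in control I, J, L and M. High fat A, B and F lay above all control libraries, and high fat G lay below 3 of the 4. The log2 fold change was 0.31 ± 0.13 (SE), with an interval of 0.03 to 0.59 that is not adjusted for the number of genes and an adjusted p = 0.14 in edgeR. Without high fat G it was 0.43 with adjusted p = 0.0294 in edgeR, the only call of a member in any fit. It was 0.43 with adjusted p = 0.068 in edgeR when control J was left out as well. High fat G also held the most red cell RNA, with summed hemoglobin and other red cell markers at 4220 CPM, against 832 to 1070 CPM in the other high fat libraries and 772 to 1870 CPM in the control libraries; the part of this in the result was not tested. Within a diet Slc16a1 was the most variable member, with an SD of log2 CPM of 0.23. This was above that of 93.7% of the 9300 genes averaging 10 CPM or more, again without regard to level.

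**Figure D3:**
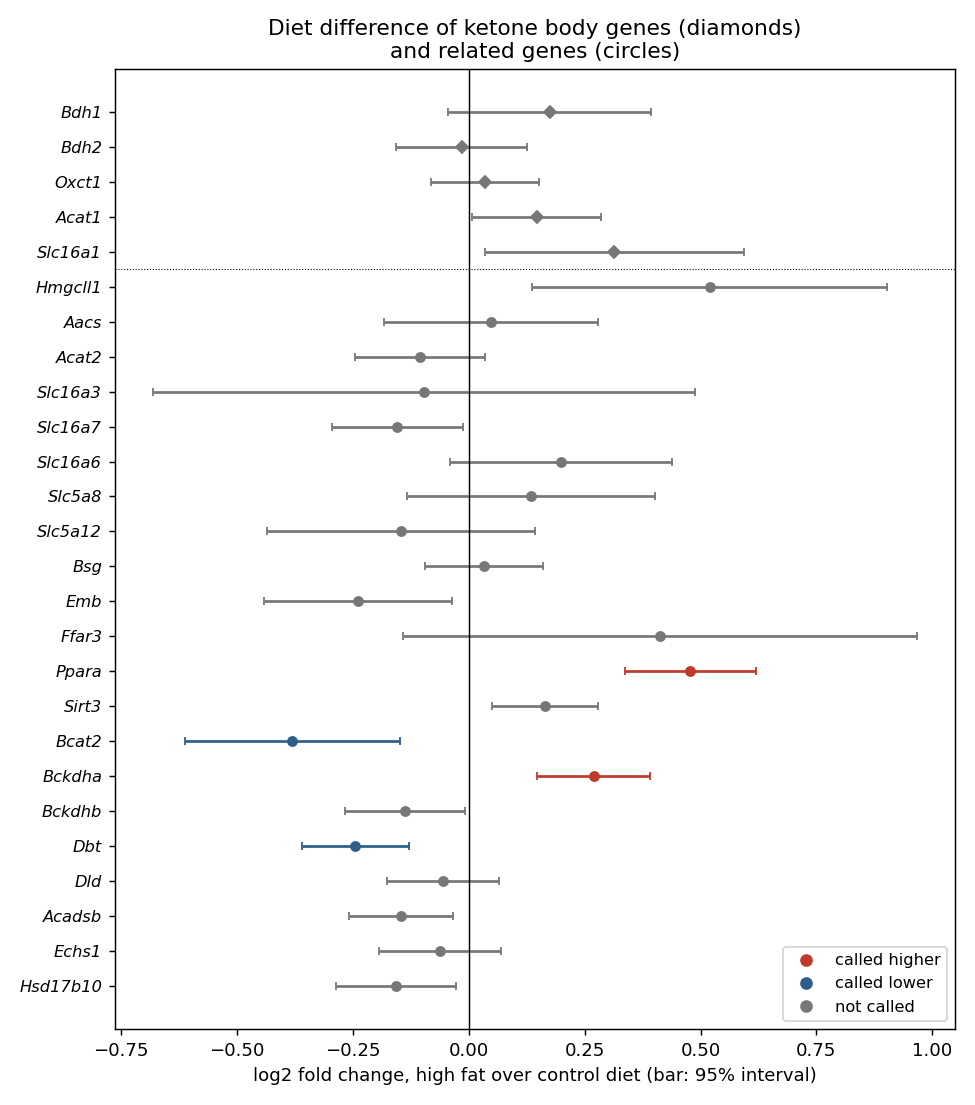
Log2 fold change of the high fat over the control diet for the 5 ketone body genes (diamonds) and related genes (circles), with unadjusted 95% intervals. Coloured points passed the test at an adjusted p under 0.05: Ppara and Bckdha higher, Bcat2 and Dbt lower.

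Of 28 other genes of ketone body synthesis and use, monocarboxylate transport, their receptors and regulators, and isoleucine breakdown, 23 could be tested; 2 rose, 2 fell and 19 did not pass in edgeR, in a comparison that called 9.99% of all tested genes. At an unadjusted p under 0.05, 4 of the 23 were higher and 7 lower, beside 27.4% of all tested genes in either direction. The median log2 fold change of the 23 was -0.05, against -0.0023 over all tested genes. Both rises and both falls concerned genes outside the ketone reactions themselves.

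Among the synthesis genes, Hmgcll1, which encodes an enzyme outside mitochondria, lay at 2.79 ± 0.45 CPM on the high fat diet and 1.92 ± 0.39 CPM on the control diet (SD, n = 4 each; adjusted p = 0.082 in edgeR). On the side of use, Aacs, which activates acetoacetate in the cytosol for lipid synthesis, had a log2 fold change of 0.05 and Acat2, the cytosolic thiolase, of -0.11; their adjusted p in edgeR was 0.81 and 0.32.

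None of the 7 tested genes of monocarboxylate transport other than Slc16a1 passed in edgeR, beside 9.99% of all tested genes called. So few genes do not set the transporters apart from that share. Slc16a7, encoding the high-affinity transporter MCT2, had 73.1, 65.7, 74.3 and 79.5 CPM in high fat A, B, F and G, against 85.2, 80.1, 82.6 and 77.7 CPM in control I, J, L and M. High fat G overlapped the control range, and the log2 fold change of -0.15 ± 0.06 (SE) had adjusted p = 0.15 in edgeR. The sodium-coupled transporters of the proximal tubule, Slc5a8 and Slc5a12, which reclaim lactate and ketone bodies from the filtrate, had log2 fold changes of 0.13 ± 0.12 and -0.15 ± 0.13 (SE), with adjusted p of 0.51 for each in edgeR. Per length they exceeded Slc16a1 in every library: the FPKM of Slc5a8 was 5.11 to 7.86 times that of Slc16a1 on the high fat diet and 5.47 to 7.64 times on the control diet. For Slc5a12 it was 6.90 to 10.8 times on the high fat diet and 7.56 to 13 times on the control diet. Bsg (basigin), the chaperone that brings MCT1 to the membrane, had 363 ± 25.7 CPM on the high fat diet and 355 ± 3.07 CPM on the control diet (SD, n = 4 each; adjusted p = 0.77 in edgeR). Its relative Emb (embigin), partner of MCT2, had a log2 fold change of -0.24 ± 0.09 (SE; adjusted p = 0.12 in edgeR). Slc16a6 and Slc16a3 had log2 fold changes of 0.20 and -0.10, with adjusted p of 0.27 and 0.87 in edgeR, and Slc16a8 had at most 8 expected counts per library and was not tested.

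Among receptors and regulators, Ppara, the fatty acid receptor that drives ketone synthesis genes in liver, rose by 0.48 ± 0.06 (SE) on the log2 scale, with 294 to 301 CPM on the high fat diet and 194 to 236 CPM on the control diet and adjusted p = 0.0024 in edgeR. It kept its call in all 8 fits without a library. Sirt3, the main deacetylase of mitochondria, had 82.1 to 92.2 CPM on the high fat diet and 76.7 to 79.9 CPM on the control diet without overlap, yet did not pass, at adjusted p = 0.070 in edgeR. Ffar3, a receptor of short fatty acids that also binds beta-hydroxybutyrate, lay at 0.97 ± 0.32 CPM on the high fat diet and 0.72 ± 0.068 CPM on the control diet (SD, n = 4 each; adjusted p = 0.32 in edgeR). The beta-hydroxybutyrate receptor gene Hcar2 (Niacr1 in the table) had at most 3 expected counts per library. Fgf21 had 0 in all 8 libraries.

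In the isoleucine breakdown that ends with the Acat1 thiolase, 1 of the 8 genes other than Acat1 rose, 2 fell and 5 did not pass in edgeR, beside 9.99% of all tested genes called. At an unadjusted p under 0.05, 5 of the 8 were lower, and 4 were lower without overlap between the diets. Of all 14711 tested genes, 2074 were lower at that p, and 9.2% were lower without overlap. Bckdha, a subunit of the branched-chain ketoacid dehydrogenase, rose by 0.27 ± 0.06 (SE) on the log2 scale (adjusted p = 0.015 in edgeR), with 384 to 438 CPM on the high fat diet and 322 to 342 CPM on the control diet. Dbt, the core subunit of the same complex, fell by 0.24 to 116 ± 6.68 CPM on the high fat diet, against 138 ± 1.295 CPM on the control diet (SD, n = 4 each; adjusted p = 0.017 in edgeR). Bcat2, the mitochondrial branched-chain aminotransferase, fell by 0.38 (adjusted p = 0.044 in edgeR), but of the 8 fits that drop a library, it was called in that without control M alone, and its adjusted p reached 0.12 without high fat F. Dbt lost its call without high fat F (adjusted p = 0.0503 in edgeR). Without both control J and high fat G, adjusted p in edgeR was 0.068 for Bckdha and 0.073 for Dbt. Acadsb, an acyl-CoA dehydrogenase of short branched chains, had 131 to 143 CPM on the high fat diet and 148 to 158 CPM on the control diet without overlap, at adjusted p = 0.092 in edgeR. Hsd17b10, the dehydrogenase of the step before the thiolase, had 62.7 to 71.0 CPM on the high fat diet and 71.7 to 80.0 CPM on the control diet, also without overlap, at adjusted p = 0.11 in edgeR. Bckdhb, a further subunit of the ketoacid dehydrogenase, overlapped between the diets and had a log2 fold change of -0.14 with adjusted p = 0.16 in edgeR.

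**Figure D4:**
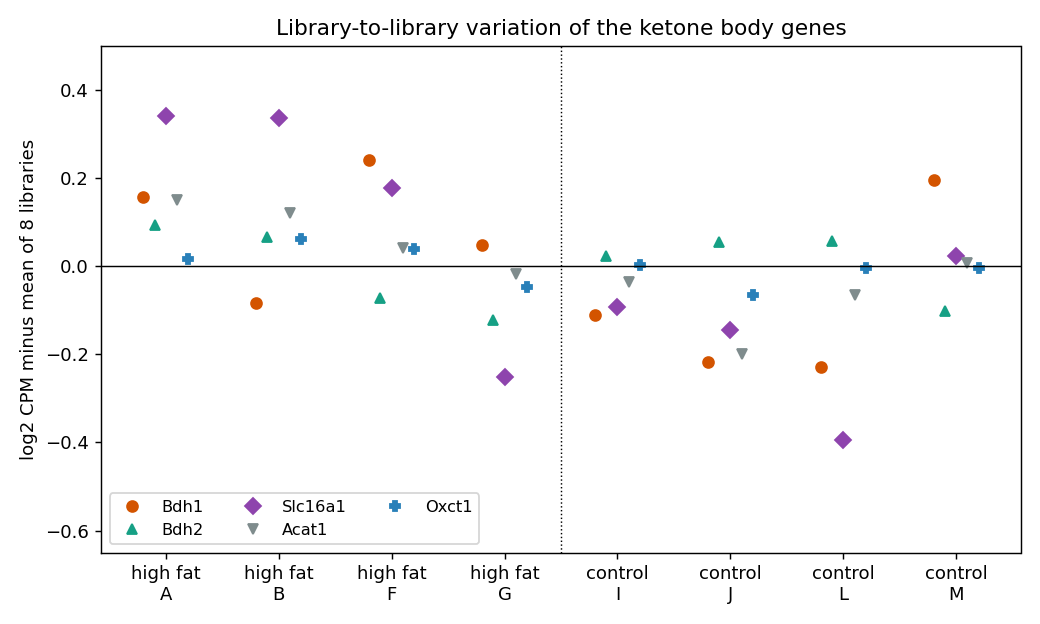
Log2 CPM of the 5 ketone body genes in each library, relative to each gene's mean over the 8 libraries, with the diets parted by the dotted line. Bdh1 is highest in high fat F and control M, Slc16a1 spreads most, and Oxct1 stays near 0 throughout.

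The members varied between libraries partly together and partly in different ways. High fat F and control M had the most Bdh1 of their diets: 139 CPM in high fat F against 111 to 132 in the other high fat libraries, and 135 CPM in control M against 101 to 109 in the other control libraries. Bdh2 ran the other way on the control diet, at 225 CPM in control M against 246 to 251 CPM in the rest. On the high fat diet its 230 CPM in high fat F lay inside the range of 222 to 258 CPM of the rest. Over the 8 libraries, as a description that mixes both diets, Pearson's r of log2 CPM between Bdh1 and Bdh2 was -0.56 and between Oxct1 and Acat1 0.79. These were the lowest and the highest values among the member pairs. Slc16a1 had an r of 0.78 with Acat1 and 0.71 with Oxct1, and Bdh1 had 0.61 with Acat1. These pairs share libraries and scaling, and high fat F and control M were singled out after their values were seen.

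For each member the genes of most similar pattern were sought among 8823 others, by Pearson's r of log2 CPM over the 8 libraries, which share their scaling; the values are descriptions. Bdh1 was most like Erc2, Trim47 and Ctdspl (r from 0.96 to 0.97). For Bdh2 these included Shmt1, an enzyme of serine and folate metabolism, and Atp5f1, a subunit of ATP synthase (r of 0.97 and 0.96). Acat1 was most like Ndufv1, a subunit of respiratory complex I, D1Bwg0212e and Tbc1d23 (r from 0.98 to 0.99). Oxct1 was most like Ergic2, Rnmt and Pik3c3 (r from 0.94 to 0.98), and Slc16a1 was most like Notum, Atg14 and Ttc30b (r from 0.95 to 0.98). None of these genes was called between the diets in edgeR, where their adjusted p ran from 0.093 to 0.68, beside 9.99% of all tested genes called. They were picked for likeness to members that were not called, so this is no separate result.

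The markers of other cortical cells differed between the diets in part, and their part in the values of the ketone body genes was not tested. Of 7 markers each, 5 of the thick ascending limb, 3 of collecting duct principal cells and 2 of intercalated cells were called lower on the high fat diet in edgeR and none higher. Over all tested genes, 5.13% were called lower and 4.86% higher. Of 5 distal convoluted tubule markers 1 was called lower, and none of the podocyte, endothelial or macrophage markers was called. Thick ascending limb markers summed to 3060 to 3790 CPM on the high fat diet and 3780 to 4470 CPM on the control diet, with an exact permutation p = 0.0571. Principal cell markers summed to 315 to 385 CPM on the high fat diet and 350 to 459 CPM on the control diet (exact permutation p = 0.0571). Intercalated cell markers summed to 306 to 337 CPM on the high fat diet and 357 to 398 CPM on the control diet (exact permutation p = 0.0286, the smallest that the 70 ways to assign the libraries allow).

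The 7 markers of the last proximal segment went both ways: 3 were called higher on the high fat diet and 3 lower in edgeR. The shares over all tested genes were 4.86% higher and 5.13% lower. Atp11a had 2426 ± 443 CPM on the high fat diet and 1505 ± 478 CPM on the control diet, and Slc7a13 had 670.2 ± 81.0 CPM on the high fat diet and 885 ± 116 CPM on the control diet (SD, n = 4 each). Their sum, 4500 to 5720 CPM on the high fat diet and 3140 to 4980 CPM on the control diet (exact permutation p = 0.0571), follows its most abundant members and is no measure of a shared change. Liver markers also went both ways, with 1 of 4 tested called higher and 1 lower in edgeR. They summed to 120 to 201 CPM on the high fat diet and 89 to 127 CPM on the control diet (exact permutation p = 0.0571). The liver sum likewise follows its most abundant member and is no measure of a shared change. Over all 15 marker sums the lowest adjusted p was 0.14, but 9 sums would have had to reach the smallest possible p together for any to pass 0.05, so this says nothing about whether the sums differed. Brown fat markers summed to 8.01 to 10.4 CPM on the high fat diet and 7.20 to 11.1 CPM on the control diet, with Cox7a1 the only one of 5 that passed the filter on low counts and at most 14 expected counts of Ucp1, the defining marker, per library. Skeletal muscle markers summed to at most 0.81 CPM on the high fat diet and 1.23 CPM on the control diet.

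In the authors' deposited table of fold and probability, 1133 genes are listed, each with a posterior probability of equal expression of at most 0.0499, and none of the 5 members is among them. Of the related genes, the authors' deposited table lists Ppara at 1.40-fold, Bckdha at 1.21-fold and Sirt3 at 1.12-fold of control, and Dbt at 0.846-fold and Acadsb at 0.906-fold.

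**Figure D5:**
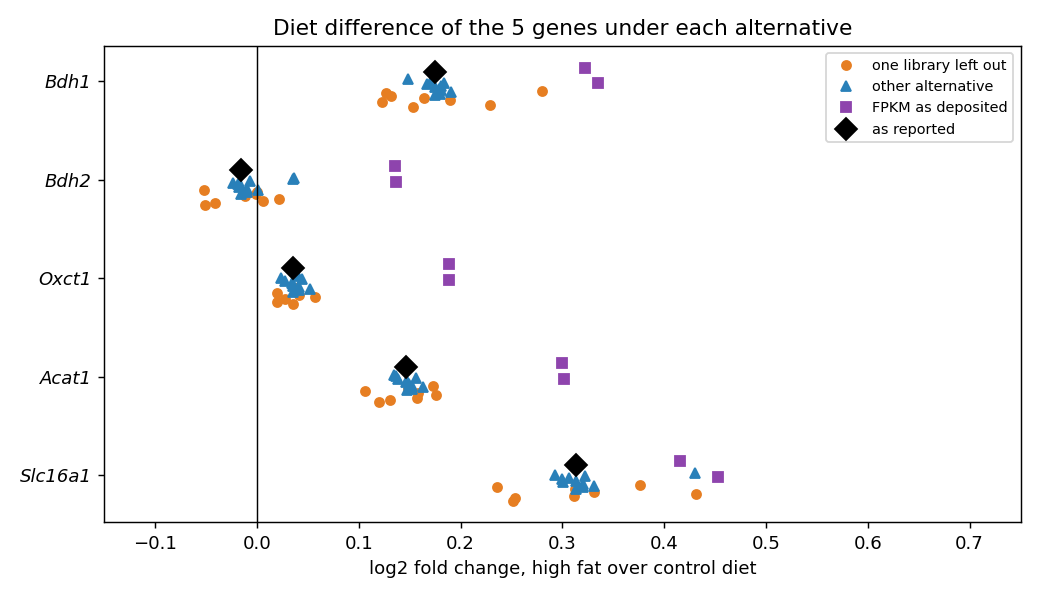
Log2 fold change of the high fat over the control diet for each of the 5 genes as reported (diamond) and under 21 alternatives. Bdh2 falls on both sides of 0, the other genes stay above it, and all 5 shift to the right with the FPKM as deposited, in which control J is scaled with its Rn45s.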

How the data were processed

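RNA of dissected outer renal cortex was isolated with Trizol and made into libraries with an Illumina TruSeq kit with Ribo-Zero Gold, per the labels' protocols. CASAVA 1.8.2, RSEM 1.2.9 and the mm10 build are named in the submitters' processing notes. The authors deposited RSEM expected counts (estimated counts, per the file headers) and FPKM per gene symbol, and tables of fold (ratio of high fat over control) with a posterior probability as a score; the sources used here name no tool for them.

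Expected counts were rounded, Rn45s was removed, and the diets were compared in R 4.3.3 by the quasi-likelihood test of edgeR 4.0.16 after filterByExpr and TMM, with diet as the only term (checked on simulated data). SE is |log2 fold change| over the root of F. FPKM were rescaled by the total count over the TMM-scaled total without Rn45s. Gene bounds are from GENCODE M21 (GRCm38, the assembly of mm10), promoter windows from RefSeq, and similar transcripts from BLAST 2.17.0. Named genes are the members, the related lists and the 3 genes most like each member; some of them enter the counts but are not reported here by name. The members and lists were chosen with earlier results of these data known. Of the listed genes, 1 red cell marker found no match. Alternatives used DESeq2 1.42.0, limma 3.58.1 and other filters, scalings and libraries; limma on rescaled FPKM was added after seeing the data.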

Additional observations from a re-analysis of the deposited data

Results flagged for a closer look

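In a group of 4 libraries, a library was picked out when its gap to the nearest other exceeded Dixon's 95% critical share of the group's range, which chance does in about 1 in 20 groups; 3 of 56 groups met this. Oxct1 stood at 1328 CPM in control J, below the 1384 to 1392 CPM of the other control libraries. Hmgcll1 stood at 2.504 CPM in control L, above the 1.67 to 1.798 CPM of the others. Aacs stood at 221 CPM in high fat A, below the 302 to 310 CPM of the other high fat libraries.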

How the results depend on the processing

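No paired analysis was possible because the library letters differ between the diets. Under 21 alternatives no member gained or lost a call, except Slc16a1, called without high fat G. The log2 fold changes of Bdh1, Oxct1, Acat1 and Slc16a1 stayed positive under all 21; that of Bdh2, near 0, turned positive under 7. With 1 library left out, values ran from 0.24 to 0.43 for Slc16a1 and from -0.052 to 0.0212 for Bdh2. Of the members 0 to 1 were called higher and 0 lower, and of the related genes 2 to 3 higher and 0 to 2 lower. Over all genes 739 to 1528 were called (421 to 759 higher, 318 to 769 lower), with 934, 739 and 908 without high fat A, F and G, and 795 and 801 without control I and J. With both high fat G and control J dropped, 418 were called (245 higher, 173 lower), 1 related gene higher and 0 lower, and Bdh2 was at 0.0361; fewer libraries were compared. With FPKM as deposited and a pseudocount of 0.1, 91 genes were called (64 higher, 27 lower), 0 of the related genes in either direction, and Bdh2 was at 0.137. With a pseudocount of 1, 98 were called (66 higher, 32 lower), again 0 of the related genes, and Bdh2 was at 0.136. These FPKM shift the median of all genes by 0.141 and 0.107 on the log2 scale, since Rn45s in control J enters their scaling, so Bdh2 lay close to the median. Upper-quartile factors gave 0.00148 for Bdh2 and 1 related gene lower, limma-voom 1 related gene lower, and removal of the length trend 0.0358 for Bdh2; the cause was not tested. At an adjusted p under 0.1, 2547 genes were called (1222 higher, 1325 lower), with 4 related genes higher and 3 lower. Under 0.01, 330 were called (181 higher, 149 lower), with 1 related gene higher and 0 lower. Slc16a1 rests on 726 to 2011 expected counts per library and the other members on 1302 to 43862.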
